A study of Homo sapiens with 6 samples.

Results

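The genes of WNT signaling were followed here in undifferentiated H7 cells, an established human embryonic stem cell (hESC) line, with and without S6K1. Members were found in the count table by symbol, as the ligands WNT1 to WNT16, the Frizzled receptors, LRP5 and LRP6, the R-spondins and their LGR receptors, the SFRP, DKK, Kremen and WIF1 modulators, PORCN, WLS and NOTUM, RNF43 and ZNRF3, and the AXIN, APC, CTNNB1 and TCF/LEF genes. The rule found 63 of the 61155 symbols in the count table, and 44 of the 63 had enough counts to be tested. WNT proteins are secreted, lipid-modified ligands that bind Frizzled receptors together with LRP5 or LRP6. Binding stops a destruction complex built on AXIN and APC from degrading β-catenin, which then works with TCF/LEF factors on target genes, whereas other WNT signals act through planar cell polarity components without β-catenin. In pluripotent stem cells the pathway is known for driving exit toward mesendoderm when it is strongly activated.

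The WT group held 3 libraries of H7 cells and the S6K1-/- group held 3 libraries of cells in which Cas9 was directed to exons 9 and 11 of RPS6KB1, the gene of S6K1. Both were grown without feeders on Matrigel in TeSR-E8 medium and are labelled as undifferentiated, although their labels also carry the time week 5 and call the genotype a knockdown, and a text on dexamethasone, isobutylmethylxanthine and insulin stands beside both without being tied to a step. The S6K1-/- cells that were sequenced were clone #1, so an effect of S6K1 and a difference between clones cannot be told apart. Whether the libraries of a group came from separate cultures is not stated, so that p-values measure the spread between these libraries, which may be technical. Library totals ran from 21896698 to 24473013 counts. RPS6KB1 had 831, 791 and 777 counts in WT and 464, 464 and 438 in S6K1-/- libraries (log2 fold change -0.75, edgeR adjusted p = 2.52e-07).

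The stem cell label was checked against 14 pluripotency genes, all of which were tested and had at least 1983 counts in every library. Their summed level was 8664 to 8865 CPM (counts scaled to library size by TMM) in WT and 8173 to 8279 CPM in S6K1-/- libraries, and 1 of them, DNMT3B, was lower at an adjusted p under 0.001, where 2.54% of all genes tested were lower and 1.42% higher. Of the mesenchyme markers, 4 of 6 tested (COL1A1, COL6A3, TWIST2 and PDGFRB) were lower in S6K1-/- cells. The list summed to 582 to 605 CPM in WT and 507 to 529 CPM in S6K1-/- libraries, most of it THY1, also known from stem cells, at 488 and 480 CPM. Without THY1 the sums were 106 to 108 CPM in WT and 33.8 to 38.5 CPM in S6K1-/- libraries, while COL3A1, TWIST1, PRRX1, DCN, LUM and FAP had at most 3 counts in any library. Endoderm markers summed to 25 to 28.2 CPM in WT and 19 to 19.5 CPM in S6K1-/- libraries, with FOXA1 lower and SOX17, GATA6 and TTR at most at 3 counts. Neuroectoderm markers (43.2 to 45.4 CPM against 44.5 to 50 CPM) held 1 lower gene, DCX, and 1 higher gene, PAX6. Mesendoderm markers (16.6 to 17.4 CPM against 17.6 to 19 CPM, 4 tested) held none past the threshold in edgeR and 0 with DESeq2. At an unadjusted p under 0.05, 1 of them was lower and 1 higher, where 2840 and 2304 of all 19521 genes tested were. Without MIXL1, the most abundant, the mesendoderm sum was 5.82 to 6.28 CPM in WT and 4.82 to 5.72 CPM in S6K1-/- libraries. Amnion and trophoblast markers (27.5 to 29.2 CPM against 26.5 to 28.7 CPM) held 1 higher gene, GATA2, among 5 tested. The other 4 had log2 fold changes below 0, with KRT7 at -0.82 just short of the threshold (edgeR adjusted p = 0.00103). With DESeq2 the neuroectoderm list held 0 lower genes, so that DCX was lost, the endoderm list held 2 lower genes and the pluripotency list 1 lower and 1 higher gene, while the counts of the mesenchyme and the amnion and trophoblast lists were as in edgeR. The part of these markers in the results below was not tested.

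Levels are given as CPM and, where genes are compared with each other, as CPM per kilobase of exonic length. By this measure SFRP2, a secreted protein that binds WNT ligands, was the most abundant member, with 262 ± 10.8 in WT and 281 ± 11.1 CPM per kilobase in S6K1-/- cells (SD, n = 3 each). The order below it differed between the groups. In WT cells the Frizzled receptor FZD7 came next at 47.0 CPM per kilobase, clear of CTNNB1, which encodes β-catenin, at 37.1 and of the repressor-type factor TCF7L1 at 37.0, which overlapped each other. SFRP1 at 31.7 and FZD5 at 28.7 CPM per kilobase followed in WT without overlap. In S6K1-/- cells CTNNB1 at 39.7 and TCF7L1 at 38.0 overlapped and came next, followed without overlap by FZD5 at 28.6, FZD7 at 26.5 and SFRP1 at 25.8 CPM per kilobase. In both groups LGR4, a receptor for R-spondins, came after these (21.1 in WT and 21.4 in S6K1-/- cells), and then the co-receptors LRP5 (10.2 and 10.6) and LRP6 (9.88 and 10.2), whose libraries overlapped. Ligands were far less abundant. WNT5A, a ligand known for signaling without β-catenin, led them with 2.18 ± 0.134 in WT and 1.67 ± 0.155 CPM per kilobase in S6K1-/- cells (SD, n = 3 each). Of 43 pairs of neighbours in the order of the 44 tested members, 27 overlapped in WT and 22 in S6K1-/- cells. Bowtie2 does not align across splice junctions, and FZD1, FZD2, FZD7, FZD8, FZD9 and FZD10 have 1 exon. What this does to levels compared between genes was not tested.

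**Figure D1:**
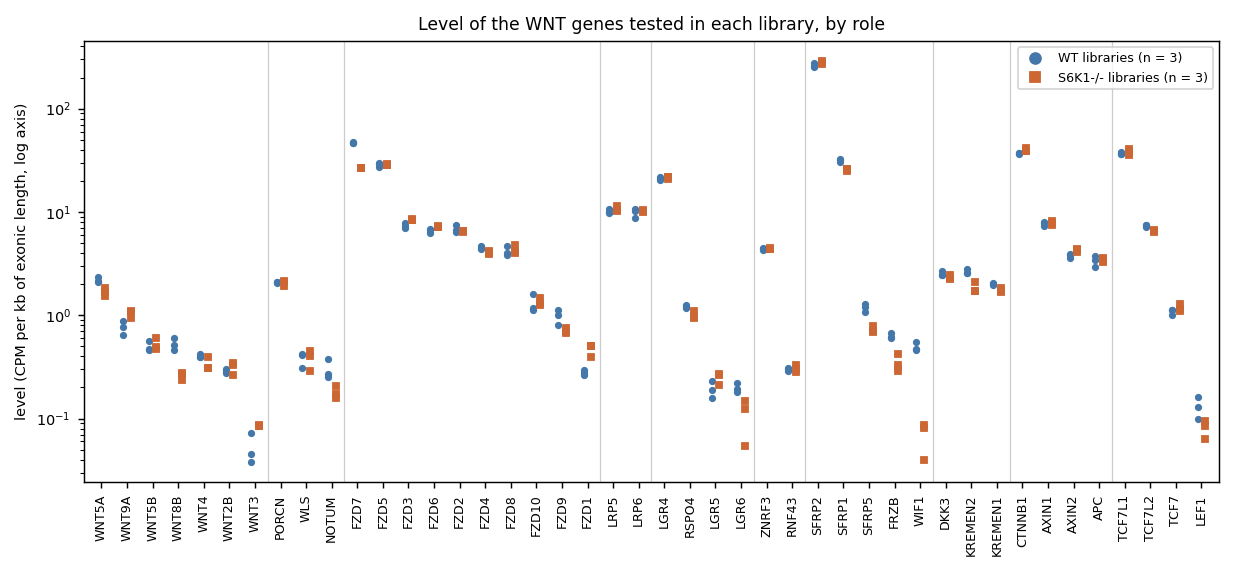
Level of each of the 44 tested members in each library, in CPM per kilobase of exonic length on a log axis, grouped by role. Circles are WT and squares S6K1-/- libraries (3 each). SFRP2 lies highest in both groups, and WNT5A, at a mean of 2.18 in WT, is the highest of the WNT ligands.

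Of the 44 tested members, 3 fell in S6K1-/- cells at an adjusted p under 0.001, the threshold of the study. They were FZD7, a Frizzled receptor, and the secreted antagonists WIF1 and SFRP1. These make 6.82% of the tested members, where 2.54% of all 19521 genes tested were lower. None was higher in edgeR's quasi-likelihood test (0) or with DESeq2 (0), where 1.42% of all genes were in edgeR. At an unadjusted p under 0.05 in edgeR, 14 members were lower and 7 higher, where 2840 and 2304 of all 19521 genes were. At an adjusted p under 0.05, 9 members were lower and 2 were higher, where 8.31% and 5.47% of all genes passed. WT and S6K1-/- libraries were without overlap for 25 tested members (56.8%), 18 lower and 7 higher, where this held for 30.7% of all genes. The median log2 fold change was 0 for the members and for all genes, to 2 decimals, and 22 of the 44 lay below 0, as did 50.6% of all genes. A gene could pass the filter on low counts through its WT libraries alone, as WIF1 did, and the members were chosen with earlier results of these data known, so these counts and shares only describe the tested members.

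**Figure D2:**
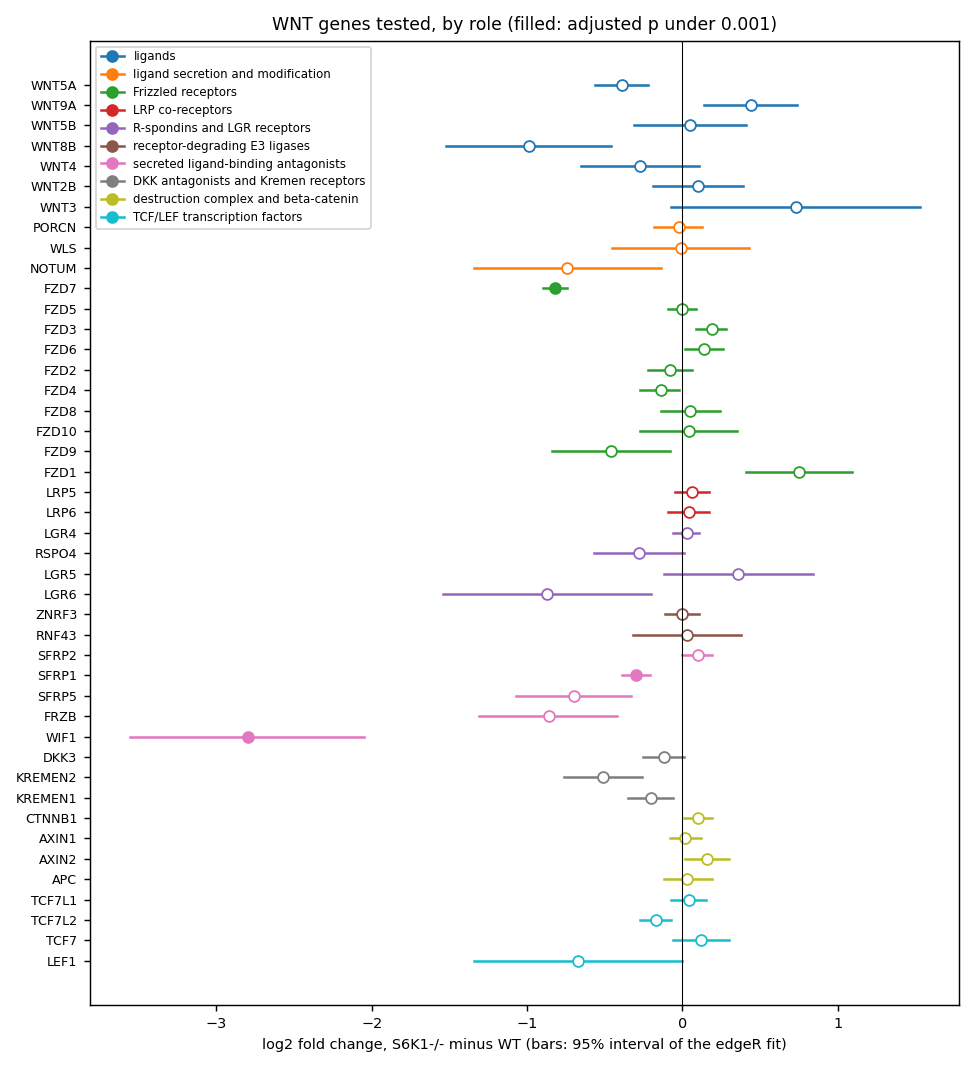
Log2 fold change of S6K1-/- against WT cells for the 44 tested members, by role, with the 95% interval of the edgeR fit as bars. Filled points mark the 3 members at an adjusted p under 0.001, WIF1 at -2.80, FZD7 at -0.82 and SFRP1 at -0.30, all below 0.

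Among the Frizzled receptors, FZD7 was the most abundant in WT cells and fell by 43.5% in S6K1-/- cells. It lies on chromosome 2 of GRCh38 from 202033855 to 202038441 on the plus strand, with 1 exon of 4587 bases. FZD7 had 5352, 5274 and 4931 counts in WT and 2861, 2913 and 2650 in S6K1-/- libraries. The groups lay far apart, at 216 ± 3.88 CPM in WT and 122 ± 0.0881 CPM in S6K1-/- cells (SD, n = 3 each). The small SD in S6K1-/- cells rests on 3 libraries and does not show low variation. The log2 fold change was -0.82 (standard error 0.038, edgeR adjusted p = 6.55e-10), and it stayed between -0.83 and -0.80 under every alternative run. Less FZD7 RNA per cell and fewer cells with it cannot be told apart in bulk RNA.

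FZD5, the next receptor in level, did not follow. Its level was 202 ± 9.64 CPM in WT and 201 ± 2.92 CPM in S6K1-/- cells (SD, n = 3 each), with overlapping libraries and a 95% interval of the log2 fold change from -0.09 to 0.09. FZD3, known for its part in axon guidance and planar cell polarity, had 2357, 2457 and 2507 counts in WT and 2752, 2759 and 2498 in S6K1-/- libraries, at 102 ± 5.73 and 116 ± 1.3 CPM (SD, n = 3 each). After scaling these groups did not overlap, and its log2 fold change was 0.19 (standard error 0.045, edgeR adjusted p = 0.00992). FZD1, the least abundant receptor per kilobase in both groups, had 44, 50 and 44 counts in WT and 81, 65 and 76 in S6K1-/- libraries. All S6K1-/- libraries of FZD1 lay above all WT libraries, and the log2 fold change was 0.75 (standard error 0.159, edgeR adjusted p = 0.00501). FZD3 and FZD1 thus passed 0.05 but not 0.001. The other 6 receptors had log2 fold changes from -0.46 for FZD9 to 0.14 for FZD6, none at an edgeR adjusted p under 0.05.

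Added up, the 10 receptors gave 108 ± 0.886 CPM per kilobase in WT and 88.2 ± 0.757 in S6K1-/- cells (SD, n = 3 each). FZD7 made up 44.1%, 43.6% and 43.2% of this sum in WT and 30.3%, 29.8% and 30.2% in S6K1-/- libraries. FZD5 made up 27.3%, 25.3% and 27.2% in WT and 32.4%, 32.6% and 32.2% in S6K1-/- libraries. FZD7 was the most abundant receptor RNA in each WT library and FZD5 in each S6K1-/- library, in CPM per kilobase as well as in counts. Shares of a sum depend on each other, so no test is given for them.

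**Figure D3:**
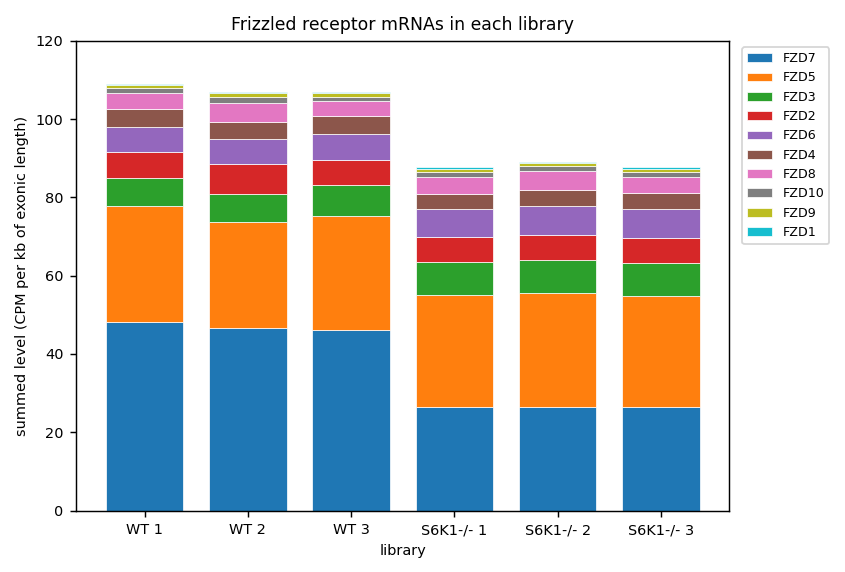
Stacked levels of the 10 Frizzled receptor RNAs in each library, in CPM per kilobase of exonic length. The column height is about 108 in WT and 88.2 in S6K1-/- libraries, and the FZD7 segment goes from a mean of 47.0 to 26.5.

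WIF1, FRZB and the SFRP proteins bind WNT ligands outside the cell and keep them from their receptors. WIF1 showed the largest change of all tested members. It lies on chromosome 12 of GRCh38 from 65050626 to 65121305 on the minus strand, with 10 exons in its canonical transcript. WIF1 had 28, 24 and 23 counts in WT and 4, 2 and 4 in S6K1-/- libraries. Though low in both groups, these did not overlap, and the log2 fold change was -2.80 (standard error 0.353, edgeR adjusted p = 5.58e-05). Summed and scaled, the counts were 7.19-fold higher in WT than in S6K1-/- cells, with an exact 95% interval from 3.70 to 15.6 that covers counting error only.
SFRP1, on chromosome 8 with 3 exons, had 3673, 3522 and 3610 counts in WT and 2908, 2834 and 2692 in S6K1-/- libraries. Its mean level was 150 ± 6.14 CPM in WT and 122 ± 3.11 CPM in S6K1-/- cells (SD, n = 3 each). The log2 fold change was -0.30 (standard error 0.042, edgeR adjusted p = 1.73e-04). The groups did not overlap, but with 1 library left out SFRP1 passed 0.001 only without WT replicate 2, with an edgeR adjusted p from 0.00114 to 0.00252 in the other 5 fits.
FRZB and SFRP5 were scarce. FRZB had 39, 40 and 41 counts in WT and 18, 21 and 24 in S6K1-/- libraries (log2 fold change -0.86, standard error 0.208, edgeR adjusted p = 0.0113). SFRP5 had 49, 59 and 53 counts in WT and 35, 32 and 28 in S6K1-/- libraries (log2 fold change -0.70, standard error 0.173, edgeR adjusted p = 0.0134). Neither overlapped between groups, and neither passed 0.05 with DESeq2 (DESeq2 adjusted p = 0.122 and 0.146).
SFRP2, the member that dominates this group in level, had 524 ± 21.5 CPM in WT and 561 ± 22.1 CPM in S6K1-/- cells (SD, n = 3 each). Its libraries overlapped, and the 95% interval of its log2 fold change ran from 0.00 to 0.19. The summed level of the SFRP family and WIF1 was accordingly 296 ± 9.67 CPM per kilobase in WT and 308 ± 10.6 in S6K1-/- cells (SD, n = 3 each), of which SFRP2 made up 88.5% and 91.2%. SFRP4 had at most 3 counts in any library and was not tested.

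**Figure D4:**
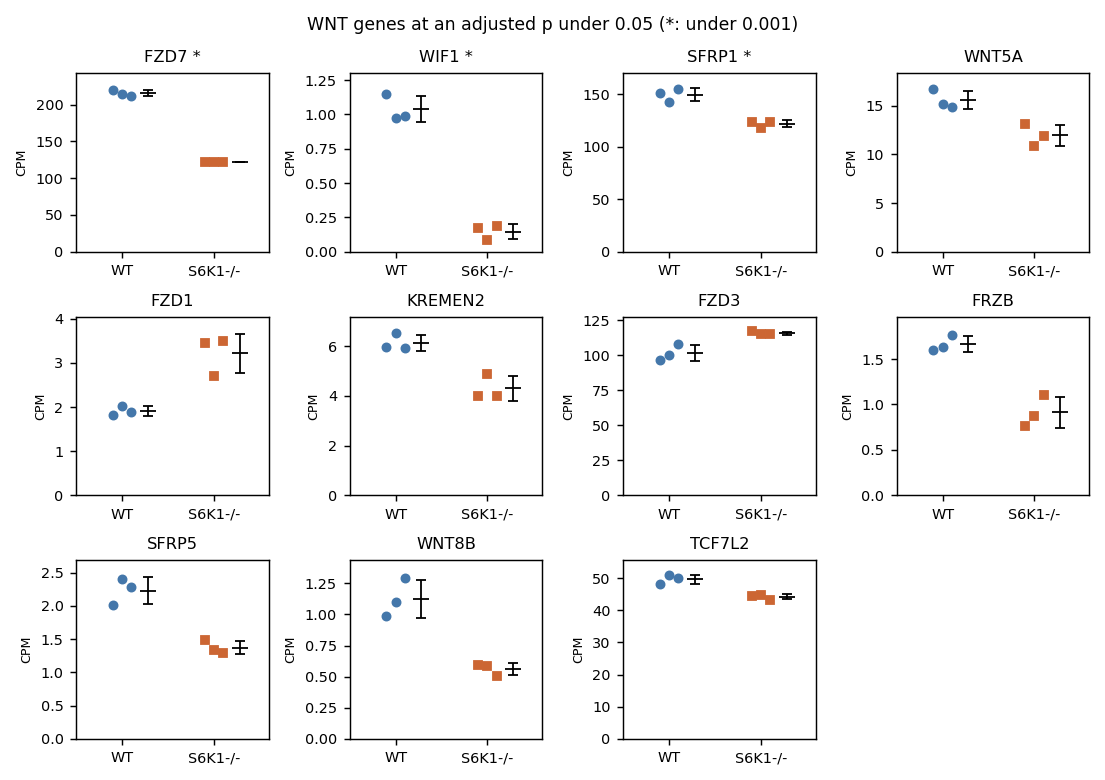
CPM of the 11 members at an adjusted p under 0.05 in each library, with the mean and SD (n = 3) at the right of each group. An asterisk marks the 3 under 0.001. In all 11 panels the WT circles and the S6K1-/- squares do not overlap, which selecting members by p on these same libraries favours. FZD1 and FZD3 are the 2 that lie higher in S6K1-/- cells.

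The sequence upstream of the start is shown for 3 of these members, chosen as contrasts in direction and in base composition: WIF1, with the largest fall, FZD1, with the largest positive change among those under 0.05, and WNT8B, a ligand described next. RefSeq promoter windows on GRCh38.p14, which run from 250 bases before to 50 bases after a start, were found for 43 of the 63 members. FZD7, SFRP1, FZD3 and KREMEN2 were not among these. The 250 bases before each start follow, 5′ to 3′ on the gene's strand, with CpG dinucleotides, the sites that DNA methylation acts on, in capitals. They are chr12:65121306-65121555 (minus strand) for WIF1, chr7:91264183-91264432 (plus strand) for FZD1 and chr10:100462759-100463008 (plus strand) for WNT8B.
WIF1: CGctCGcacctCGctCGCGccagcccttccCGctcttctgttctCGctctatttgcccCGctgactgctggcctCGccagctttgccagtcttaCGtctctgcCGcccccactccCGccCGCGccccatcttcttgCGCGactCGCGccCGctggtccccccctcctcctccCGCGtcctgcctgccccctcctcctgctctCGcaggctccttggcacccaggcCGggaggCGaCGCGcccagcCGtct
FZD1: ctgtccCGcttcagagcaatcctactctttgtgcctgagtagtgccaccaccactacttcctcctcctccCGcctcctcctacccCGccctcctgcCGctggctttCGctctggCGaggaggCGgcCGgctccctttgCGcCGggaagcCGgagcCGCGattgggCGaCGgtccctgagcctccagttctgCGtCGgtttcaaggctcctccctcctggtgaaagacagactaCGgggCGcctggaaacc
WNT8B: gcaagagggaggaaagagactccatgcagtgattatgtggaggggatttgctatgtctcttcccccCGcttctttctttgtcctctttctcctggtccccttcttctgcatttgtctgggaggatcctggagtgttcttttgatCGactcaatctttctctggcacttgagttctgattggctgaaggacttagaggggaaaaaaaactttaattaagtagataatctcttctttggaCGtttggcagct
These stretches hold 27, 19 and 3 CpG dinucleotides. In the full windows of 300 bases the numbers are 29, 25 and 4, where the median was 23 over the 55 windows of members and 14 over all 35116 windows. Of WIF1 and WNT8B, both lower in S6K1-/- than in WT libraries, WIF1 thus lies above and WNT8B below both medians. The core TCF/LEF motif CTTTGAT was searched on both strands and was in 0 of the 55 windows of members, where 2.62% of all windows held it, which says only that these letters are not in these windows. DNA methylation and factor binding were not measured in these libraries.

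Of the 19 ligands, 7 were tested and none passed 0.001 (0 in edgeR, 0 with DESeq2). At an unadjusted p under 0.05, 2 ligands were lower and 1 higher, where 2840 and 2304 of all 19521 genes tested were. WNT5A had 407, 374 and 347 counts in WT and 307, 260 and 258 in S6K1-/- libraries. Its groups did not overlap, and the log2 fold change was -0.39 (standard error 0.082, edgeR adjusted p = 0.00448). WNT8B, a ligand of the developing forebrain, had 24, 27 and 30 counts in WT and 14, 14 and 11 in S6K1-/- libraries. Again the groups did not overlap, and the log2 fold change was -0.99 (standard error 0.248, edgeR adjusted p = 0.0144, DESeq2 adjusted p = 0.170). WNT9A, the ligand with the next highest level after WNT5A, had 85, 75 and 60 counts in WT and 88, 103 and 95 in S6K1-/- libraries, higher without overlap after scaling (log2 fold change 0.44, edgeR adjusted p = 0.0506). WNT5B, at 2.13 ± 0.234 CPM in WT and 2.21 ± 0.307 CPM in S6K1-/- cells (SD, n = 3 each), overlapped between groups. Of the other tested ligands, WNT4, WNT2B and WNT3 had log2 fold changes of -0.27, 0.10 and 0.73 and edgeR adjusted p-values from 0.237 to 0.696.
The 12 ligands that were not tested had at most 14 counts in a library. WNT6, WNT9B and WNT10A had 0 counts in all libraries, which allows at most 0.123 to 0.137 CPM per library (3 counts of its total). WNT3A, often used to activate the β-catenin branch, had 7, 9 and 4 counts in WT and 3, 5 and 6 in S6K1-/- libraries. These ligands were not tested in the main fit, and their values in the fits without its filter are not given.
PORCN, which attaches the lipid to WNT ligands, stood at 12.1 ± 0.171 CPM in WT and 11.9 ± 0.661 CPM in S6K1-/- cells (SD, n = 3 each). WLS, which carries the ligands to the cell surface, was scarce at 1.70 ± 0.280 and 1.70 ± 0.381 CPM (SD, n = 3 each). NOTUM, an enzyme that removes the lipid again, had 19, 27 and 17 counts in WT and 14, 11 and 11 in S6K1-/- libraries (log2 fold change -0.74, edgeR adjusted p = 0.103).

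The co-receptors LRP5 and LRP6 overlapped between the groups, and the 95% intervals of their log2 fold changes ran from -0.05 to 0.17 and from -0.09 to 0.17. R-spondins bind LGR receptors and thereby hold off RNF43 and ZNRF3, ligases that mark Frizzled receptors for degradation. LGR4, at 134 ± 4.63 CPM in WT and 136 ± 3.85 CPM in S6K1-/- cells (SD, n = 3 each), was the main receptor of this branch, with an interval from -0.06 to 0.11. RSPO4 was the only R-spondin with enough counts, 82, 79 and 81 in WT and 61, 72 and 58 in S6K1-/- libraries (log2 fold change -0.28, edgeR adjusted p = 0.204). LGR5 had 24, 30 and 19 counts in WT and 33, 33 and 24 in S6K1-/- libraries (log2 fold change 0.36, edgeR adjusted p = 0.339). LGR6, a relative of LGR5, had 25, 21 and 21 counts in WT and 6, 14 and 15 in S6K1-/- libraries, without overlap (log2 fold change -0.87, edgeR adjusted p = 0.0836). ZNRF3 stood at 30.6 ± 0.538 and 30.7 ± 0.251 CPM (SD, n = 3 each), with an interval from -0.11 to 0.11. RNF43, of which 68.4% of the exonic bases are shared with another annotated gene on the same strand, had an interval from -0.32 to 0.38.
DKK proteins block LRP5 and LRP6 together with Kremen receptors. KREMEN2 had 145, 160 and 138 counts in WT and 94, 117 and 87 in S6K1-/- libraries, without overlap (log2 fold change -0.51, standard error 0.116, edgeR adjusted p = 0.00749). Of its exonic bases, 15.3% overlap PKMYT1 on the opposite strand, and whether the counting used strand is not given in the sources used here. KREMEN1 had a log2 fold change of -0.20 (edgeR adjusted p = 0.0558). DKK3, a divergent DKK family member of which 47.5% of the exonic bases overlap USP47 on the opposite strand, had -0.12 (edgeR adjusted p = 0.223). DKK1 had 1 to 9 counts per library, DKK2 at most 1 and DKK4 none.

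Inside the cell, CTNNB1 had 436 ± 5.10 CPM in WT and 467 ± 21.7 CPM in S6K1-/- cells (SD, n = 3 each). Its groups did not overlap, but the log2 fold change of 0.10 had an edgeR adjusted p of 0.157. AXIN1 and APC, scaffolds of the destruction complex, overlapped between groups, with intervals from -0.08 to 0.12 and from -0.12 to 0.19. AXIN2, both a scaffold and a widely used readout of β-catenin activity, had 489, 504 and 431 counts in WT and 520, 549 and 459 in S6K1-/- libraries. After scaling AXIN2 did not overlap, and its log2 fold change was 0.16 (standard error 0.065, edgeR adjusted p = 0.122). Part of its exonic bases, 25.3%, is shared with another annotated gene on the same strand.
TCF7L1 made up 81.2% of the summed level of the TCF/LEF factors in WT and 82.9% in S6K1-/- cells, and its log2 fold change of 0.04 had an interval from -0.07 to 0.15. TCF7L2 had 1173, 1251 and 1161 counts in WT and 1045, 1072 and 943 in S6K1-/- libraries. These groups did not overlap, and the log2 fold change was -0.17 (standard error 0.046, edgeR adjusted p = 0.0235, DESeq2 adjusted p = 0.124). With 1 library left out, TCF7L2 passed 0.05 in 2 of 6 fits. TCF7 had a log2 fold change of 0.12 (edgeR adjusted p = 0.401). LEF1, an activating factor and itself a target of the pathway, had 13, 17 and 20 counts in WT and 8, 11 and 11 in S6K1-/- libraries (log2 fold change -0.67, edgeR adjusted p = 0.191).

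Beyond the members, 5 lists of other pathway genes were read out of the same fit, with 102 of 114 listed genes tested. At an adjusted p under 0.001, 6 genes fell and 3 rose, together 8.82%, where 3.96% of all genes passed, and these lists too were chosen with earlier results known. Their median log2 fold change was 0.04.
The extracellular modulators held 4 of these genes among 20 tested. CER1, a secreted antagonist of Nodal and BMP ligands, had 69, 49 and 57 counts in WT and 9, 10 and 15 in S6K1-/- libraries, without overlap, and fell by 2.29 on the log2 scale (edgeR adjusted p = 1.31e-05). GPC3, a heparan sulfate proteoglycan of the cell surface, fell by 0.48 (edgeR adjusted p = 1.93e-05). SERPINF1, which encodes the secreted protein PEDF, fell by 0.52 (edgeR adjusted p = 1.16e-04). LRP4, a co-receptor relative that binds antagonists such as sclerostin, rose by 0.37 (edgeR adjusted p = 1.60e-04). Neither SERPINF1 without S6K1-/- replicate 2 or 3 nor LRP4 without WT replicate 3 or S6K1-/- replicate 1 passed 0.001, with edgeR adjusted p-values up to 0.00138 and 0.00170.
Of 26 other cytoplasmic components, 1 passed. DACT1, which binds Dishevelled, had 1212, 1273 and 1233 counts in WT and 751, 740 and 700 in S6K1-/- libraries, far from overlapping, with a log2 fold change of -0.70 (edgeR adjusted p = 9.91e-08).
Among 21 tested target genes outside the members, 2 fell and 2 rose. CD44, a cell surface receptor for hyaluronan, had 241, 240 and 216 counts in WT and 81, 84 and 86 in S6K1-/- libraries, and fell by 1.41 on the log2 scale (edgeR adjusted p = 1.06e-07). JUN, a subunit of the AP-1 factor, fell by 0.48 (edgeR adjusted p = 8.82e-05). GBX2, a homeobox factor of the anterior hindbrain, rose, with 21.1 ± 2.17 CPM in WT and 34.0 ± 1.3 CPM in S6K1-/- cells (SD, n = 3 each) and a log2 fold change of 0.69 (edgeR adjusted p = 7.21e-06). CDX4, a homeobox factor of posterior identity, had 26, 35 and 27 counts in WT and 68, 59 and 61 in S6K1-/- libraries (log2 fold change 1.15, edgeR adjusted p = 3.56e-04), but with 1 library left out it passed 0.001 in 2 of 6 fits, those without WT replicate 2 and without S6K1-/- replicate 2, and it did not pass with DESeq2 (DESeq2 adjusted p = 0.00114). JUN did not pass without S6K1-/- replicate 3 (edgeR adjusted p = 0.00133). Of the 7 target genes that were not tested, SP5, TBXT, CDX1, CDX2 and ASCL2 overlapped or had at most 2 counts in any library. The other two had fewer counts in S6K1-/- than in WT libraries without overlap, TNFRSF19 with 13, 10 and 10 against 3, 3 and 4, and MSX2 with 7, 7 and 5 against 2, 3 and 2.
No nuclear cofactor (16 tested) and no planar cell polarity or non-canonical component (22 tested) passed 0.001 in edgeR or DESeq2. At an unadjusted p under 0.05, 1 and 4 of them were lower and 5 and 3 higher. Of all 19521 genes tested, 2840 were lower and 2304 higher at that cut. The smallest p-values of the cofactors belonged to PYGO1 (log2 fold change -0.76, edgeR adjusted p = 0.0202) and TLE5 (0.14, edgeR adjusted p = 0.0456). Those of the polarity and non-canonical components belonged to DAAM2 (-0.51, edgeR adjusted p = 0.00525) and ROR2 (0.25, edgeR adjusted p = 0.0464).

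**Figure D5:**
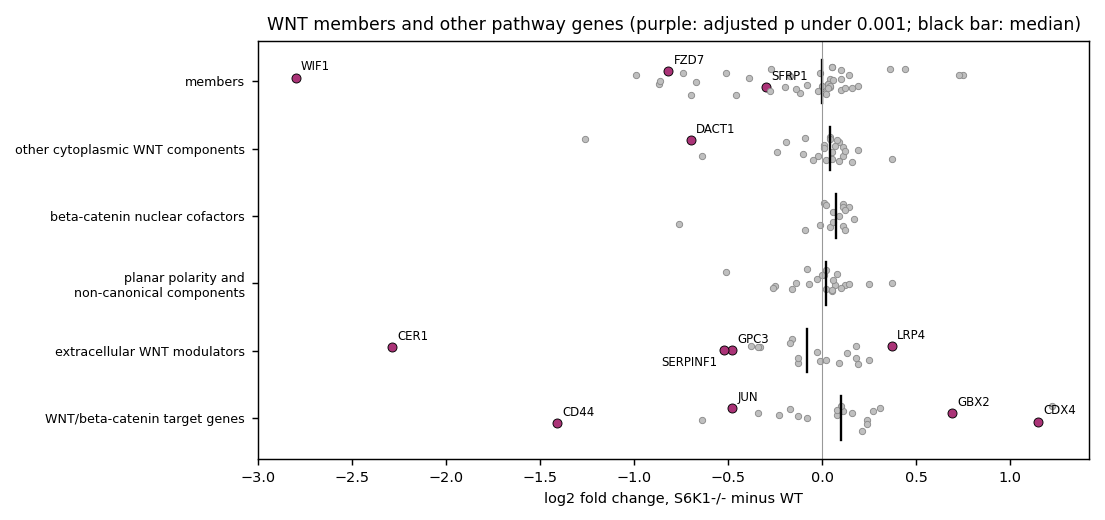
Log2 fold change of S6K1-/- against WT cells for the tested members and for the 5 lists of other pathway genes, with a point per gene and a black bar at the median. Purple points mark genes at an adjusted p under 0.001: 3 members, all below 0, and 6 lower and 3 higher genes of the lists.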

How the data were processed

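Bulk RNA was measured in WT and S6K1-/- H7 hESCs, 3 libraries each, grouped by their titles. The authors made stranded poly(A) libraries, trimmed reads with Trim Galore 0.6.5, aligned them to GRCh38 with Bowtie2 2.4.5 and deposited raw counts per gene symbol from featureCounts. The annotation and strand setting are not given in the sources used here. A table of the authors' own DESeq2 comparison was not used.

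Genes passing filterByExpr (19521 of 61155) were scaled by TMM and compared between genotypes, without covariates, by the quasi-likelihood test of edgeR 4.0.16 (R 4.3.3), adjusted by Benjamini-Hochberg over all of them at the study's threshold of 0.001. The standard error is the absolute log2 fold change divided by the root of the F statistic. The script was tested on simulated data. Exonic lengths and positions are those of GENCODE 44 on GRCh38, and the authors may have counted on other gene models. Libraries of a group differed beyond counting noise, with a ratio of chi-square to its degrees of freedom of 2.23 to 4.51.

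The members, roles, 5 lists of other pathway genes and 6 marker lists were chosen with earlier results of these data known. Full values are given for members past 0.001, then those past 0.05 and the 3 highest of each role, and for pathway genes past 0.001 or, where a list held none, the 2 with the smallest p. Alternatives were size factors of DESeq2, the Wald test of DESeq2 1.42.0, no filter, a mean of at least 1 CPM, an adjusted p under 0.05, a replicate block, leaving out each library, and levels not divided by length.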

Additional observations from a re-analysis of the deposited data

How the results depend on the processing

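Over all genes, 496 were lower and 278 higher, and the numbers were 982 and 591 without a filter on low counts, 1622 and 1067 at an adjusted p under 0.05, and 459 and 325 with DESeq2's Wald test. With 1 library left out they ran from 313 (without S6K1-/- replicate 3) to 445 lower and from 175 to 235 higher, with 175 and 179 without S6K1-/- replicates 1 and 2. Of the members, from 2 to 4 were lower under every alternative at 0.001, and 9 were at 0.05. Without a filter 2 members were higher, FZD1 and FZD3, as were 2 at 0.05. WIF1 was not tested at a mean of at least 1 CPM, and SFRP1 was lost in 5 of the 6 fits without 1 library. In those 6 fits TCF7L2 passed 0.05 in 2, SFRP5 and WNT8B in 4 each and FRZB in 5. The other members under 0.05 in the main fit passed 0.05 in all 6. Of the other pathway genes, 11 were lower and 7 higher without a filter, 16 and 12 at 0.05, and 8 and 5 with DESeq2. With 1 library left out from 4 to 7 were lower and from 1 to 4 higher, with 1 higher without WT replicate 3 and without S6K1-/- replicate 1. The cause of these shifts was not tested.

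RPS6KB1 kept its call, with a log2 fold change from -0.77 to -0.72. No call changed direction among the members, other pathway genes and RPS6KB1 that were refitted, and the calls of marker genes were not followed under the alternatives other than DESeq2. Replicate numbers gave no sign of pairing, since deviations of same-numbered libraries had correlations from -0.0101 to 0.0462, and not every library correlated best with its own number. With the number as a replicate block, 423 genes were lower and 241 higher, 3 members lower and 0 higher, 6 other pathway genes lower and 2 higher, CDX4 being lost (edgeR adjusted p = 0.00151), and RPS6KB1 at -0.75. By the mean over all libraries, the 10 members that led by CPM per kilobase also led by CPM, which was not run within each group. Depth limits the scarce members: standard errors above 0.2 on the log2 scale occurred only in members with at most 46 counts in any library.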

Other observations

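Some members below the filter on low counts also had more counts in WT than in S6K1-/- libraries. RSPO1, an R-spondin, had 6, 8 and 7 counts in WT and 3, 1 and 2 in S6K1-/- libraries, a ratio of 3.36 with an exact 95% interval from 1.31 to 10.2. WNT16, a ligand known from bone and joint tissue, had 14, 13 and 6 counts in WT and 6, 1 and 3 in S6K1-/- libraries, a ratio of 3.16 with an interval from 1.52 to 7.20. The intervals cover counting error only, and both genes were named after their counts were seen.

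SCRIB, a planar cell polarity component singled out after its values were seen, varied more within groups than between them, with 1318, 816 and 468 counts in WT and 1175, 918 and 1120 in S6K1-/- libraries.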
